A study of Pinus pinaster with 12 samples.

Results

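Root RNA libraries of maritime pine (Pinus pinaster), a conifer, were searched for transcripts that were recovered less by an antibody against N6-methyladenosine (m6A) after ammonium supply while their total RNA level stayed similar. Only 4 of 253670 transcript IDs met the rule: pp_141822, pp_57974, pp_170689 and pp_198607. The rule used levels in CPM, which are counts scaled to a common library total. The highest of the 3 ammonium immunoprecipitates (IP) had to be at most 0.5 of the lowest of the 3 water IP. The mean water IP had to reach 3 CPM and the mean input 0.5 CPM in both treatments. The ratio of the mean input with ammonium to that with water had to lie between 0.75 and about the inverse of that. The members were therefore picked by the values described here, and their IP levels, input means and ammonium changes are descriptions with no test.

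Seedlings of the Segura-Alcaraz provenance, aged 1 month, were moved to seedbeds, given water and left for 3 days, and were then irrigated with 80 mL of water or with 80 mL of 3 mM ammonium chloride. Whole roots were collected after 24 h in 3 independent runs of the experiment. Polyadenylated RNA was fragmented and either sequenced directly as input or precipitated first with the m6A antibody, which gave 4 groups (input with water, input with ammonium, IP with water, IP with ammonium) of 3 libraries each. How many seedlings made up a library is not given in the sources used here, no precipitate with a control antibody was used here, and the labels do not state that an IP and an input of the same number came from the same RNA. As these were whole roots, a change in the make-up of cell types and a change within cells cannot be told apart.

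N6-methyladenosine is a methyl mark placed on adenosines inside messenger RNA by a methyltransferase complex, read by YTH-domain proteins and removed by demethylases of the ALKB family. In plants it takes part in mRNA stability, translation and root development. Ammonium is an inorganic nitrogen source that conifers take up readily, and roots assimilate it through glutamine synthetase. In an antibody precipitate, the amount of a transcript depends both on how much of its RNA is present and on how much of that RNA the antibody holds, so the level in the input has to be read beside the level in the IP. The files do not pair the transcript IDs with gene names or with sequences, so no function or sequence is given for any ID.

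The depth of the libraries was 69030249 to 81534388 counts for the water inputs, 74257255 to 79703198 for the ammonium inputs, 57945305 to 63522543 for the water IP and 65539363 to 73185176 for the ammonium IP. Pairs of libraries of 1 group differed by more than counting noise throughout, with a chi-square per degree of freedom of 10.6 to 29.3 in the inputs, 13.2 to 22.1 in the ammonium IP and 33.1 to 51.4 in the water IP, so every library was counted as a separate sample. Replicate 1 of the water IP had the largest scaling factor among the IP libraries, 1.23 by trimmed mean of M-values (TMM). The factors were 1.03 for replicates 2 and 3 of the water IP and 0.881 to 0.941 for the ammonium IP. All 3 ammonium factors thus lay below all 3 water factors. Plain CPM therefore put the ammonium IP lower against the water IP than TMM does. Values that replicate 1 of the water IP moves by more than 1.5 times are given with and without it.

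The transcript pp_141822 showed the deepest drop of the 4. It stood at 14.5, 6.61 and 3.35 CPM in replicates 1, 2 and 3 of the water IP and at 0.448, 0.451 and 0.565 CPM in those of the ammonium IP. The 3 ammonium values lay close together and far below all water values, whereas the water values themselves spread 4.34-fold, with replicate 1 the highest. The lowest water IP was 5.93 times the highest ammonium IP. The read counts behind these levels were 922, 389 and 194 with water and 30, 33 and 37 with ammonium. The mean IP level was 8.16 ± 5.74 CPM with water and 0.488 ± 0.0664 CPM with ammonium (SD, n = 3), a ratio of water to ammonium of 16.7. Without replicate 1 the mean water IP was 4.98 CPM and this ratio was 10.2.

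The input of pp_141822 was 2.26, 3.10 and 2.85 CPM with water and 2.43, 2.07 and 2.56 CPM with ammonium. The 6 input values overlapped between treatments, and 2 of the 3 ammonium values lay inside the water range. The mean IP was 2.98 times the mean input with water, and the mean input was 4.82 times the mean IP with ammonium, so this transcript stood above its input in the IP of water-treated roots and below it in the IP of ammonium-treated roots. Without replicate 1 of the water IP, the mean IP was 1.82 times the mean input with water. Among the 25714 transcripts that met the level and input conditions of the rule, 74.5% had a lower IP/input ratio with water than pp_141822 and 12.8% had a lower one with ammonium. No other of the 4 crossed from above its input to below it.

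The transcript pp_198607 was the other one that the water IP held above its input level. It stood at 5.20, 5.56 and 4.56 CPM in the water IP and at 2.26, 2.17 and 2.14 CPM in the ammonium IP (replicates 1 to 3). Both groups were narrow: the water values spread 1.22-fold and the ammonium values 1.06-fold, and 3.76% of the 25714 transcripts that met the level and input conditions spread less in the ammonium IP. The mean IP level was 5.10 ± 0.507 CPM with water and 2.19 ± 0.0611 CPM with ammonium (SD, n = 3), and the lowest water value was 2.02 times the highest ammonium value, just inside the threshold.

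This was the scarcest of the 4 in total RNA. Its input was 0.760, 0.966 and 0.869 CPM with water and 0.623, 0.741 and 1.03 CPM with ammonium, from 49 to 82 reads per library. The ammonium inputs reached both below and above the 3 water inputs, and the 2 groups of inputs overlapped. The mean IP was 5.90 times the mean input with water and 2.74 times with ammonium, so the transcript stayed above its input in both treatments, but by less with ammonium.

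The transcripts pp_57974 and pp_170689 lay below their input in the IP of both treatments. In the water IP pp_57974 stood at 8.11, 5.32 and 5.71 CPM, and in the ammonium IP at 1.58, 2.28 and 1.83 CPM (replicates 1 to 3). The groups were separated by 2.33-fold between the nearest libraries. Its mean IP was 6.38 ± 1.51 CPM with water and 1.90 ± 0.354 CPM with ammonium (SD, n = 3), and its mean input was 2.22 times the mean IP with water and 5.60 times with ammonium. Without replicate 2 of the water inputs the former value was 1.27 times.

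The corresponding levels of pp_170689 were 6.75, 2.75 and 4.12 CPM in the water IP and 1.15, 1.35 and 1.07 CPM in the ammonium IP. Its lowest water value, that of replicate 2, was 2.04 times the highest ammonium value. The mean IP fell short of the input in either treatment, at 4.54 ± 2.03 CPM with water and 1.19 ± 0.147 CPM with ammonium (SD, n = 3). This was the most abundant of the 4 in the input and the one with the lowest IP/input ratio: the mean input was 8.96 times the mean IP with water and 27.2 times with ammonium, and 2.89% of the transcripts that met the level and input conditions had a lower ratio with water.

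**Figure D1:**
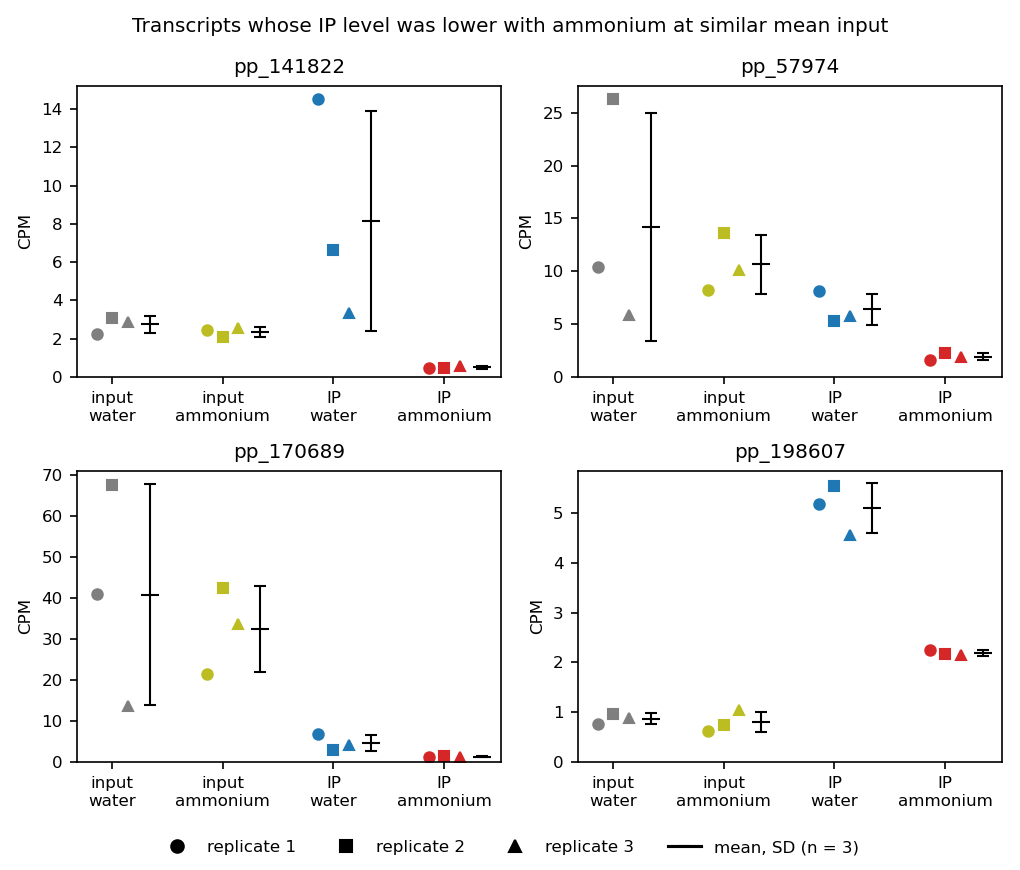
Level in CPM (linear axis from 0) of the 4 transcripts in each of the 12 libraries, by group, with replicate numbers as symbols and the mean ± SD of 3 libraries as black bars. In every panel the 3 ammonium IP points lie below the 3 water IP points, from 0.448 to 0.565 CPM against 3.35 to 14.5 CPM in pp_141822, while the water inputs of pp_57974 and pp_170689 spread more widely than their IP.

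The word steady fits the input of these transcripts to different degrees. The input of pp_170689 was 40.9, 67.6 and 13.6 CPM with water and 21.4, 42.3 and 33.7 CPM with ammonium, and that of pp_57974 was 10.4, 26.3 and 5.81 CPM with water and 8.20, 13.6 and 10.1 CPM with ammonium. In both, replicate 2 was the highest and replicate 3 the lowest water input, and all 3 ammonium inputs lay inside the water range. The water inputs of pp_170689 spread 4.97-fold and those of pp_57974 spread 4.53-fold, where the median over the 25714 transcripts that met the level and input conditions was 1.17-fold, and 99.9% and 99.8% of these spread less. The rule did not use this spread. It bounded only the means, whose ratio of ammonium to water was 0.797 for pp_170689 and 0.7502 for pp_57974, the latter at the very edge of the window. Without replicate 2 of the water inputs, this ratio was 1.19 for pp_170689 and 1.31 for pp_57974, so the mean input was then higher with ammonium than with water.

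The inputs of the other two spread less with water, 1.37-fold for pp_141822 and 1.27-fold for pp_198607, with input ratios of 0.860 and 0.922. With ammonium those of pp_198607 spread 1.65-fold, where the median over the transcripts that met the level and input conditions was 1.19-fold and 94.4% of them spread less. Without replicate 3 of the water inputs, pp_57974 and pp_170689 no longer met the input condition, and the same held without replicate 2 of the ammonium inputs. Without replicate 1 of the water inputs pp_57974 alone dropped out. The order with replicate 2 highest and replicate 3 lowest in the water inputs was found at 22.5% of the 25714 transcripts. It was found at 25 of the 32 transcripts that missed the IP threshold narrowly, with a nearest-library ratio from 1.5 to under 2. Whether this order in the inputs has a part in the IP levels was not tested.

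**Figure D2:**
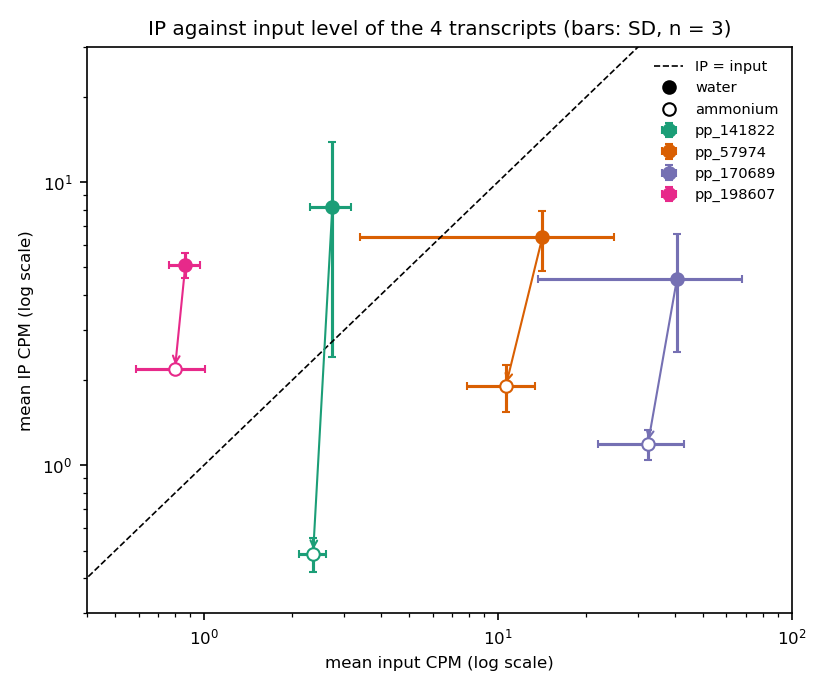
Mean IP level against mean input level of the 4 transcripts (both axes logarithmic, in CPM), with filled points for water, open points for ammonium, SD of 3 libraries as bars and an arrow from water to ammonium. All 4 arrows point down with little sideways movement, and only that of pp_141822 crosses the dashed line of equal IP and input, from 2.98 times the input to below it.

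Few transcripts showed such a drop. Of the 25714 transcripts that met the level and input conditions, the 4 members make up 0.0156%. Those transcripts had a median water IP of 11.9 CPM, and none of the 14340 of them at 10 CPM or more met the rule. All 3 ammonium IP lay below all 3 water IP at 1390 of them (5.41%) and above at 3098, together 17.5%, so among non-overlapping transcripts more were higher than lower with ammonium. When the direction of the rule was reversed, none of 23224 transcripts met it (0.0%). At a separation of at least 1.5 between the nearest libraries, 36 transcripts were lower and 7 were higher with ammonium, and at 1.8 there were 11 lower and 0 higher. At 1.2 the counts were 283 lower and 347 higher. In these pairs of counts the lower ones are out of the 25714 transcripts. The higher ones are out of the 23224, for which the minimum of 3 CPM applied to the ammonium IP.

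The value of 2 for the nearest-library ratio cuts through a continuous distribution. Just inside lay pp_198607 with 2.02, pp_170689 with 2.04 and pp_57974 with 2.33. Just outside lay pp_66724 with 1.96, pp_236973 with 1.87 and pp_187669 with 1.86. The first of these had 4.41, 2.55 and 2.61 CPM in the water IP and 1.22, 1.30 and 1.02 CPM in the ammonium IP, with similar inputs of 6.72 ± 0.996 and 6.25 ± 1.39 CPM (SD, n = 3). Only pp_141822, with 5.93, stood well apart from the rest.

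**Figure D3:**
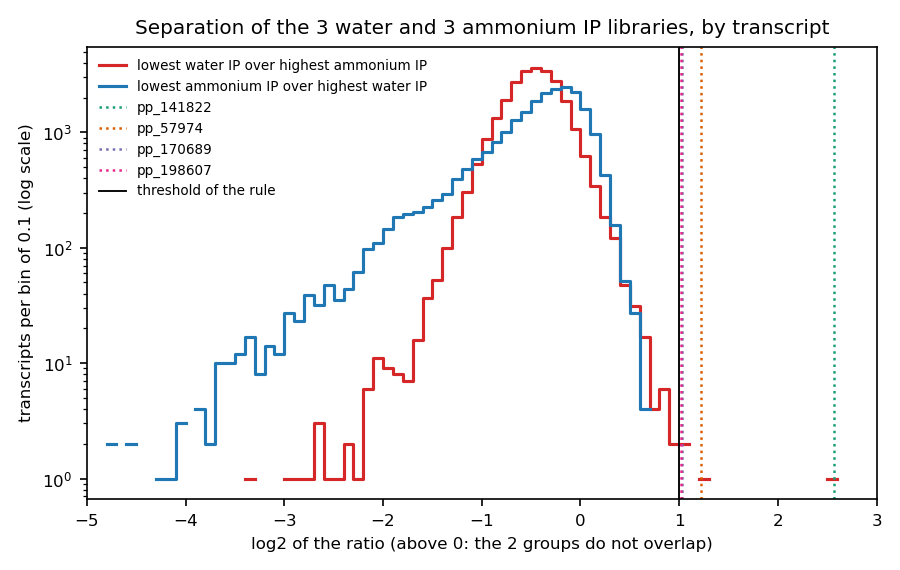
Number of transcripts per bin (logarithmic axis) by the log2 ratio of the lowest library of one IP group to the highest of the other, for water over ammonium (red, 25714 transcripts) and ammonium over water (blue, 23224 transcripts). Transcripts above 0 have groups that do not overlap; the dotted lines mark the 4 members, of which pp_141822 lies apart at a ratio of 5.93 and the others sit next to the threshold.

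The IP condition alone, without any condition on the input, was met by 13 transcripts with a mean water IP of at least 3 CPM. Besides the 4 members these were 2 transcripts whose input was under its minimum and 7 whose input was outside the window, 6 with a lower input ratio and 1 with a higher one. The nearest to the window were pp_112460 and pp_112458, with input ratios of 0.717 and 0.715. The largest input change was that of pp_94843, whose input was 20.3 ± 16.5 CPM with water and 1.76 ± 2.46 CPM with ammonium (SD, n = 3). Its water inputs were 29.0, 30.7 and 1.29 CPM in replicates 1 to 3, so its water mean rested on replicates 1 and 2. For pp_112460 all 3 ammonium inputs lay inside the water range. The share of lower inputs over all transcripts is not given, so nothing is read from the 6 of 7 with a lower mean input.

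The members were next set against fits over the whole table, in which each transcript that passed the expression filter was tested with edgeR's quasi-likelihood test and p was adjusted by Benjamini and Hochberg. The rule used these contrasts, so the counts are given beside the background and nothing is read from them. For ammonium against water in the IP, 0 of the 4 members were called at an adjusted p under 0.05, as were 0 of 99846 transcripts (0.0%). At an unadjusted p under 0.05 there were 4 of the 4 members, against 10.4% of all transcripts (10431). With DESeq2, 3 of the 4 were called (pp_141822, pp_57974 and pp_170689), against 0.316% of all transcripts (316, of which 156 were lower and 160 higher). The log2 fold changes in the IP were -3.80 (SE 0.50) for pp_141822, -1.52 (SE 0.30) for pp_57974, -1.69 (SE 0.38) for pp_170689 and -1.003 (SE 0.29) for pp_198607. Their median was -1.60, against -0.23 over all transcripts tested. Without replicate 1 of the water IP these values were -3.22, -1.40, -1.39 and -1.07 in the same order.

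In the input, 0 of the 4 were called by edgeR, against 0.424% of all transcripts (487), and 0 by DESeq2, against 2.47%. The log2 fold changes in the input were -0.17 (SE 0.19) for pp_141822 and -0.07 (SE 0.28) for pp_198607, but -0.39 (SE 0.63) for pp_57974 and -0.31 (SE 0.65) for pp_170689. The input change of the latter pair was therefore measured with more than 2 times the error of the former, and a p that misses the threshold does not show that their input was the same in both treatments. Its direction rested on 1 library: without replicate 2 of the water inputs the log2 fold change was 0.44 (SE 0.30) for pp_57974 and 0.29 (SE 0.57) for pp_170689.

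For the change of the IP/input ratio, the test of the interaction over all 12 libraries called 0 of the 4 members and 0 of 148273 transcripts (0.0%) with edgeR. Unadjusted p was under 0.05 for 1 of the 4, pp_141822, and for 8.84% of all transcripts (13109). The log2 change of the ratio was -3.52 (SE 0.57) for pp_141822, which had the second smallest p of all transcripts (adjusted p = 0.556 with edgeR, n = 3 per group). It was -1.03 (SE 0.61) for pp_57974, -1.29 (SE 0.65) for pp_170689 and -0.82 (SE 0.42) for pp_198607. DESeq2 called pp_141822 (adjusted p = 8.49e-06) and none of the other three, against 0.0627% of all transcripts (93, of which 87 were lower). Without replicate 2 of the water inputs the log2 change of the ratio was -1.85 (SE 0.46) for pp_57974 and -1.88 (SE 0.61) for pp_170689. Unadjusted p was then under 0.05 for 3 of the 4 members, against 10046 of 159281 transcripts. There were also 3 with library totals only (14047 of 148273 transcripts), without replicate 1 of the ammonium inputs (11206 of 159516) and under the replicate block (9673 of 148273). Omission of any other single library gave 1 or 2 members. In none of these fits did edgeR call a member at an adjusted p under 0.05.

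Scaling weighed on the members near the threshold. Library totals, as in the rule, gave a median log2 fold change in the IP of -0.45 over all transcripts, against -0.23 with TMM scaling. When CPM were scaled by TMM for IP and input apart, the nearest-library ratio was 5.43 for pp_141822 and 2.11 for pp_57974, which still met the rule, but 1.84 for pp_170689 and 1.65 for pp_198607, which did not. With TMM scaling over all 12 libraries, pp_141822 was the only member that met it (ratio 5.40), joined by pp_141824. That scaling also moved the log2 ratio of mean IP to mean input with ammonium. It went from -2.27 to -1.53 for pp_141822 and from -2.49 to -1.75 for pp_57974. For pp_170689 it went from -4.77 to -4.03 and for pp_198607 from 1.46 to 2.20. No member changed from above to below its input, or the reverse, by this scaling in either treatment. Under each of these TMM scalings all 3 ammonium IP of all 4 members stayed below all 3 water IP, which follows from their choice. The factors of the IP libraries ran from 0.881 to 1.23 with IP and input apart and from 0.697 to 1.00 over all 12. Over all 12 they were 0.835 to 1.00 for the water IP and 0.697 to 0.760 for the ammonium IP. Each range is narrower than 2-fold, so these factors could not make groups overlap that the rule set 2-fold apart. They could bring the gap under 2-fold, as they did for pp_170689 and pp_198607.

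The deposited peak lists, one for each treatment, placed peaks on 1 of the 4. In the authors' deposited table for water, pp_198607 had a peak at positions 199 to 348 of the transcript with a fold enrichment of 7.33 and another at positions 944 to 1241 with a fold of 6.67. In the authors' deposited table for ammonium it had none. Both folds lay in the lower part of the water list, where 34.5% and 30.9% of peaks had a lower fold. Of the 25714 transcripts that met the level and input conditions, 15.2% carried a water peak and 15.5% an ammonium peak, and 292 (1.14%) carried a peak of the water list alone. The peaks were called on the same libraries that the rule used, and a list has no values per replicate, so a missing peak does not show a missing site. The ammonium IP libraries were the deeper ones, but whether depth has a part in which peaks were listed was not tested. Neither list had a peak on pp_141822, pp_57974 or pp_170689.

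The transcript IDs next in number to the members were examined after the values of the members had been seen, since consecutive IDs can come from related sequences and can share reads. Around pp_141822, the ammonium IP lay below the water IP in all libraries for each of the 4 nearest IDs, pp_141820, pp_141821, pp_141823 and pp_141824. For pp_141820 the gap was small, with a lowest water IP of 0.680 CPM (40 reads) against a highest ammonium IP of 0.671 CPM (44 reads), and the groups overlapped under each of the 3 other scalings. Only 1 of the 4, pp_141823, met the level and input conditions, so the share of 5.41% given above is no background for this count. The mean water IP was 1.13 CPM for pp_141820 and 1.03 CPM for pp_141821. No share over all IDs at such levels is given, so nothing is read from the count. Around pp_57974 the ammonium IP lay below the water IP in all libraries for 1 of the 4 IDs. Around pp_170689 and pp_198607 this was found for 0 of the 4 IDs each. These IDs all missed the level conditions. Their mean water IP ran from 0 CPM (pp_170691, with no read in any IP library) to 2.64 CPM (pp_198606). Several of them had too few IP reads for a drop to be seen, but pp_198606 had 126 to 304 reads per IP library. Its mean IP was 2.64 CPM with water and 2.99 CPM with ammonium.

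Of the 4 nearest IDs, pp_141824 followed pp_141822 most closely in the size of its IP drop. It stood at 4.82, 1.72 and 2.04 CPM in the water IP and at 0.134, 0.246 and 0.336 CPM in the ammonium IP, with a nearest-library ratio of 5.11. Its input was 6.97 ± 1.48 CPM with water and 7.12 ± 0.751 CPM with ammonium (SD, n = 3). Unlike pp_141822, it lay below its input in the IP of both treatments. The mean input was 2.44 times the mean IP with water and 29.8 times with ammonium. It was not a member because its mean water IP, 2.86 ± 1.71 CPM, was under the minimum of 3. As in pp_141822, replicate 1 was the highest of the water IP. Without that library the mean water IP of pp_141824 was 1.88 CPM, and the mean water input was 3.71 times this. The log2 change of its IP/input ratio was -3.30 (SE 0.55), close to that of pp_141822. It did not pass in edgeR's quasi-likelihood test (adjusted p = 0.556) and passed in DESeq2 (adjusted p = 2.17e-06). Without replicate 2 of the water IP it passed in edgeR's quasi-likelihood test (adjusted p = 0.0422), where 28 of 157353 transcripts were called. With any other single library omitted, edgeR called 0 transcripts for the ratio.

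The transcript pp_141823 was far more abundant. It stood at 204.1, 177.8 and 152.6 CPM in the water IP and at 115.2, 121.9 and 121.9 CPM in the ammonium IP, while its input was 39.2 ± 5.62 CPM with water and 38.4 ± 2.32 CPM with ammonium (SD, n = 3). Its groups did not overlap in the IP, but the nearest libraries differed by a ratio of only 1.25, and the log2 change of its IP/input ratio was -0.26 (SE 0.18), not called by either tool. In the authors' deposited tables it had a peak at positions 1331 to 1626 in both lists, with a fold of 262 with water and 168 with ammonium, and a further peak at positions 395 to 1134 with a fold of 5.27 with water only. The files do not say whether reads of pp_141823 could have been counted for pp_141822 or pp_141824.

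**Figure D4:**
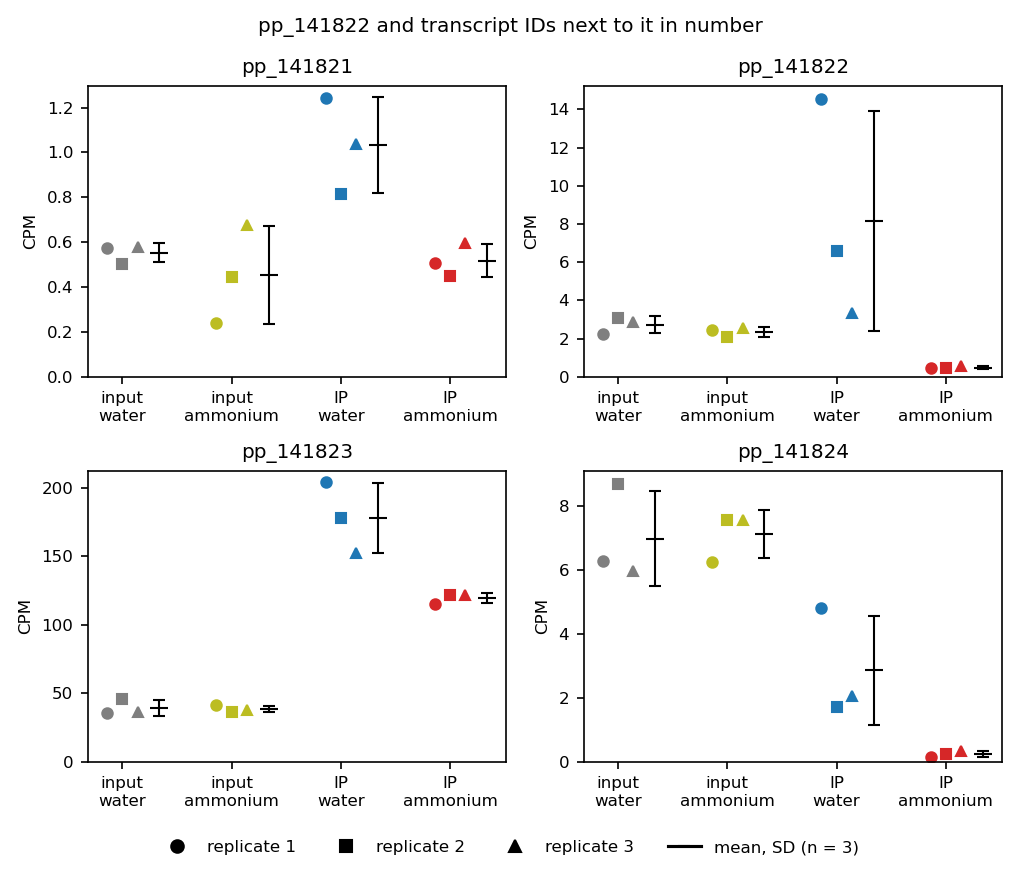
Level in CPM (linear axes from 0, each panel with its own scale) of pp_141822 and of 3 transcript IDs next to it in number, in each of the 12 libraries, with replicate numbers as symbols and the mean ± SD of 3 libraries as black bars. The remaining nearest ID, pp_141820, whose gap between the IP groups was small, is not shown. In all 4 panels the 3 ammonium IP points lie below the 3 water IP points, while the inputs of the 2 treatments overlap; pp_141823 is at 152.6 to 204.1 CPM in the water IP, where pp_141824 is at 1.72 to 4.82 CPM.

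The IDs around pp_57974 gave a mixed picture. For pp_57973 the water IP was 2.91, 4.83 and 4.61 CPM and the ammonium IP 1.16, 1.98 and 1.88 CPM, without overlap and with a nearest-library ratio of 1.47, at inputs of 0.953 ± 0.435 and 0.811 ± 0.161 CPM (SD, n = 3). For pp_57975 and pp_57976 the groups overlapped in the IP, with 13.2 ± 2.66 against 9.24 ± 2.92 CPM and 12.2 ± 1.99 against 8.91 ± 2.73 CPM (SD, n = 3).

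To see how far a drop found in some libraries was found again in others, the rule was applied to 2 of the 3 replicate numbers and the IP libraries of the number left out were then read. Left out were 1 water and 1 ammonium library each time, so this is a description with no test. With number 1 left out, 11 transcripts met the rule, and all 11 were lower with ammonium in replicate 1, with a median log2 ratio of -1.22, where 45.6% of the 22928 transcripts that met the level and input conditions were lower. Of these 11, 3 were members, for which replicate 1 was part of the choice, and all of the 8 others were lower too. With number 3 left out, 47 transcripts met the rule and 24 of them (51.1%) were lower in replicate 3, close to the 51.9% of all 25376 that met those conditions. With number 2 left out, 1010 transcripts met the rule, but 357 (35.3%) were lower in replicate 2, where 39.1% of 26768 were. With the members set aside, 353 of 1006 were lower for number 2 and 22 of 45 for number 3. A drop of at least 2-fold in the replicate left out was found at 8 of the 11 (72.7%, against 9.39% of all that met the conditions) for number 1, at 23 of the 1010 (2.28% against 1.84%) for number 2 and at 3 of the 47 (6.38% against 6.11%) for number 3. These counts include 3, 4 and 2 members for numbers 1, 2 and 3. For a member, the rule itself set a drop of at least 2-fold in each replicate, so the members add nothing to these shares.

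Of the single libraries, replicate 2 of the water IP had most weight in the number of members. When it was omitted 595 transcripts met the rule, whereas 6 did without replicate 1 of this group and 17 without replicate 3. Omission of an IP library can only loosen the condition on the nearest libraries, so that the 4 members still met the rule in these cases follows from their choice.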

How the data were processed

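Raw counts of reads per transcript ID in 12 libraries were deposited by the authors. The submitters' processing notes name bcl2fastq and BWA. The sources used here do not give the reference, the strand or how reads matching several IDs were counted. Peaks, listed once per treatment by the authors, have, per the file headers, a fold (the ratio of IP to input) and a p-value. The caller is not given. Positions run from 1 along the transcript ID.

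Groups and replicate numbers came from the sample titles. CPM are counts scaled to library totals. Tests on counts used edgeR 4.0.16 under R 4.3.3 (TMM, default expression filter with minimum count 10 and minimum total 15, quasi-likelihood F tests with robust estimation, two-sided). Adjustment by Benjamini and Hochberg ran over all transcripts tested, and calls were made under 0.05. Input and IP contrasts used their own 6 libraries, and the ratio change all 12. Alternatives included DESeq2 1.42.0, other scalings, no filter, a replicate block and omission of each library. The fits were tested on simulated data. The rule and its members were chosen with earlier results of these data known. Named were the members, those just inside and just outside the threshold, and, chosen after seeing values, the IDs next in number and those set aside by the input window. The labels describe 3 independent runs without tying numbers to them. No gene names, sequences or cell type markers were used here.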

Additional observations from a re-analysis of the deposited data

How the results depend on the processing

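The number of transcripts that met the rule was 4. It was 2 with TMM scaling over all 12 libraries, 2 with TMM for IP and input apart and 2 with size factors of the DESeq2 type, 36 and 1 when the highest ammonium IP could be 2/3 or 1/3 of the lowest water IP, 19 and 0 at a mean water IP of at least 1 or 10 CPM, 1 with an input ratio from 0.9 to about its inverse and 11 without a bound on it. An input ratio taken from medians, chosen after seeing the data, gave 4. Omission of 1 library gave 2 to 595: 595 and 17 without replicates 2 and 3 of the water IP, 10 and 12 without replicates 1 and 2 of the ammonium IP, and 2 without replicate 3 of the water inputs.

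For ammonium against water in the IP, where edgeR called 0 transcripts and 0 members, the counts were 1863 (575 higher, 1288 lower) and 3 without a filter, 879 (780 higher, 99 lower) and 1 when all 12 libraries were fitted, 316 (160 higher, 156 lower) and 3 by DESeq2, and 0 to 34 and 0 to 1 when 1 library was omitted, the 34 and 1 without replicate 2 of the water IP. In the input, where 487 transcripts and 0 members were called, the counts were 2461 without a filter, 2843 with DESeq2, 0 in the fit of all 12 libraries (4442 at an unadjusted p under 0.05) and 39 to 4921 when 1 library was omitted (39, 90 and 250 for water inputs 1, 2 and 3, and 4921, 305 and 228 for ammonium inputs 1, 2 and 3), and no member was called in any of these. For the change of the ratio DESeq2 called 93 transcripts and 1 member, and omission of 1 library gave 0 to 28 transcripts and 0 members, the 28 without replicate 2 of the water IP.

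Deviations of same-numbered libraries correlated at -0.0607 to 0.110, not over 0.1 in every pair, so the numbers were not taken as pairs. With ammonium, each input correlated best with the IP of its own number (0.0697 to 0.110, against -0.0763 to 0.00124 for other numbers), a hint from the data and not from the design. With water, input 1 did so too (0.0227). Water inputs 2 and 3 had their lowest correlation with the IP of their own number (-0.0341 and -0.0607). With the replicate block edgeR called 8 transcripts and 1 member (pp_141822) in the IP, 896 transcripts and 0 members in the input, and 0 of both for the ratio.

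Under TMM scaling for IP and input apart, the share lower in the replicate left out of the rule was 27.3% of 499 chosen against 25.4% of all that met its level and input conditions for number 2, 60.0% of 5 against 39.9% for number 3, and 100.0% of 5 against 21.2% for number 1. Of the chosen, 3, 1 and 1 were members for numbers 2, 3 and 1. Among the others, 133 of 496, 2 of 4 and 4 of 4 were lower in that order. The direction of the members' log2 changes in the IP is set by the rule. In the input 4 of 48 alternative values turned, for pp_57974 and pp_170689 without replicate 2 of the water inputs (values given above) and for pp_198607, at -0.07, to 0.02 without that library and 0.07 without replicate 1 of the ammonium inputs. In the rarest input, that of pp_198607, 49 to 82 reads limit the precision. The share of reads that IDs have in common limits what any count of separate transcripts means, and its effect was not tested.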
